A study of Homo sapiens with 2 samples.

Results

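The genes described here encode the proteins that carry a cell through mitosis, build the kinetochore and move along microtubules. They were the protein-coding genes whose symbol in GENCODE 29 starts with KIF and a digit, with CENP or with BUB, together with 25 named mitosis genes such as CDK1, CDC20 and AURKA. Of 95 annotated genes that met this rule, 36 were listed with a value, out of 16145 genes listed in either library. All 36 were listed in both libraries. The other 59, among them CCNA2, CCNB1, CCNB2, PLK1, AURKB, TTK, TOP2A, MKI67 and KIF11, were not analysed here, and the results hold for the 36 genes alone.

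The study sequenced mRNA from 2 cultures labelled HAL-01, a human leukaemia line whose labels give the cell type as pre-B acute lymphoblastic leukaemia. The AG library came from a culture given 0.8 mM 1,5-AG (1,5-anhydroglucitol, a polyol that resembles glucose) for 24 h, and the Control library from a culture for which the sources used here give no treatment. There was 1 library per group, so no difference below has a replicate check, no test between the conditions was possible and no p-value is given. Values are FPKM, fragments scaled to gene length and library size, as the authors deposited them. The recovered totals were 14857372 fragments in AG and 16240451 in Control. Each ratio below is FPKM in AG over FPKM in Control, with an exact 95% Clopper-Pearson interval from the fragments behind both values, which covers counting error only.

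The marker genes did not follow the label. Of 13 pre-B markers, 5 had a value in AG and 7 in Control, summing to 2.89 and 2.57 FPKM, while CD79B, PAX5, VPREB1 and DNTT had a value in neither library. Of 13 myeloid markers, 7 had a value in each library, summing to 497 FPKM in AG and 952 FPKM in Control. AZU1, PRTN3, S100A8, CSF3R, CD14 and FCN1 had a value in neither library. A missing value is not read as absence of the mRNA. NKG7 was the single T and NK marker of 6 with a value, at 10.3 FPKM in AG and 17.2 FPKM in Control. Of 5 erythroid markers 0 had a value in AG and 1 in Control, at 0.0472 FPKM, and 2 of 4 stromal markers had one, summing to 0.448 and 0.176 FPKM. The lower myeloid sum in AG came from CTSG, at 194 FPKM in AG and 743 FPKM in Control. Of the 7 markers 4 were above 0, with intervals over 1, and 3 were below 0, with intervals under 1, at a median log2 ratio of 0.28. The part of these differences in the results below was not tested.

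Entry into mitosis is driven by CDK1 bound to cyclin B and switched on by the CDC25 phosphatases. Kinetochores assemble on centromeric chromatin marked by CENPA, a histone H3 variant, and the NDC80 complex of their outer layer holds the microtubules. Until every kinetochore is attached, the spindle checkpoint with BUB1 and MAD2L1 keeps CDC20 from activating the anaphase-promoting complex. Once it is active, securin is destroyed and separase (ESPL1) cuts the cohesin that joins sister chromatids. Kinesins are motors that walk on or take apart microtubules, some of them in the spindle and others in transport along axons, cilia and the cell body. Transcripts of many of these genes rise late in the cell cycle, and in a culture of mixed phases their level follows in part how many cells are near mitosis.

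Most of the genes with a mitotic role had slightly lower FPKM in AG than in Control, with ratios from 0.797 to 0.990 among those below 1, and CENPA was the clear exception. Of the 36 genes, 33 averaged 1 FPKM or more over both libraries and were compared on the log2(FPKM + 1) scale, where the pseudocount understates the difference of low genes. Of these 33, 26 were below 0, against 56.8% of all 5528 genes compared. Their median log2 ratio was -0.11, against -0.03 over all genes compared. None of the 33 was at least 1.5-fold higher (3.6% of all genes compared) and none was at least 1.5-fold lower (3.33%), and counts of 0 are near those shares. KIF9, with an FPKM ratio of 0.440, missed the threshold only through the pseudocount. The interval of the ratio lay wholly under 1 for 19 of the 33, against 22.9% of the 5382 genes compared that had an interval, and wholly over 1 for 2, against 16.7%. Intervals narrow with depth: among the 27 genes averaging 5 FPKM or more it lay under 1 for 17, against 28% of all genes at that level. Set against the median ratio of all genes compared, 0.975, in place of 1, the interval lay under it for 11 of the 33 genes. Among all genes with an interval this share was 18.1%. It lay over the median ratio for 3 of the 33, against 1098 of the 5382 genes with an interval. At 5 FPKM or more it lay under the median ratio for 9 of 27 genes, against 660 of 3077. It lay over for 2 of these 27, against 822 of 3077. In bulk RNA, fewer cells in mitosis and less of these mRNAs per cell cannot be told apart.

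The rule brought together mitotic genes and kinesins of other roles, and their medians differed. Of 27 compared genes with a mitotic role, 24 were below 0, and their log2 ratios had a median of -0.11. Among the 6 without such a role, 2 were below 0, and the median was 0.08. The intervals of KIF1C, KIF16B and KIF7, which were above 0, include 1. The 6 were also at a lower level, with a median of 2.25 FPKM in AG and 1.94 FPKM in Control. For the 27 it was 19.5 FPKM in AG and 21.3 FPKM in Control. The roles were assigned from general knowledge, and the difference between these lists was not tested.

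**Figure D1:**
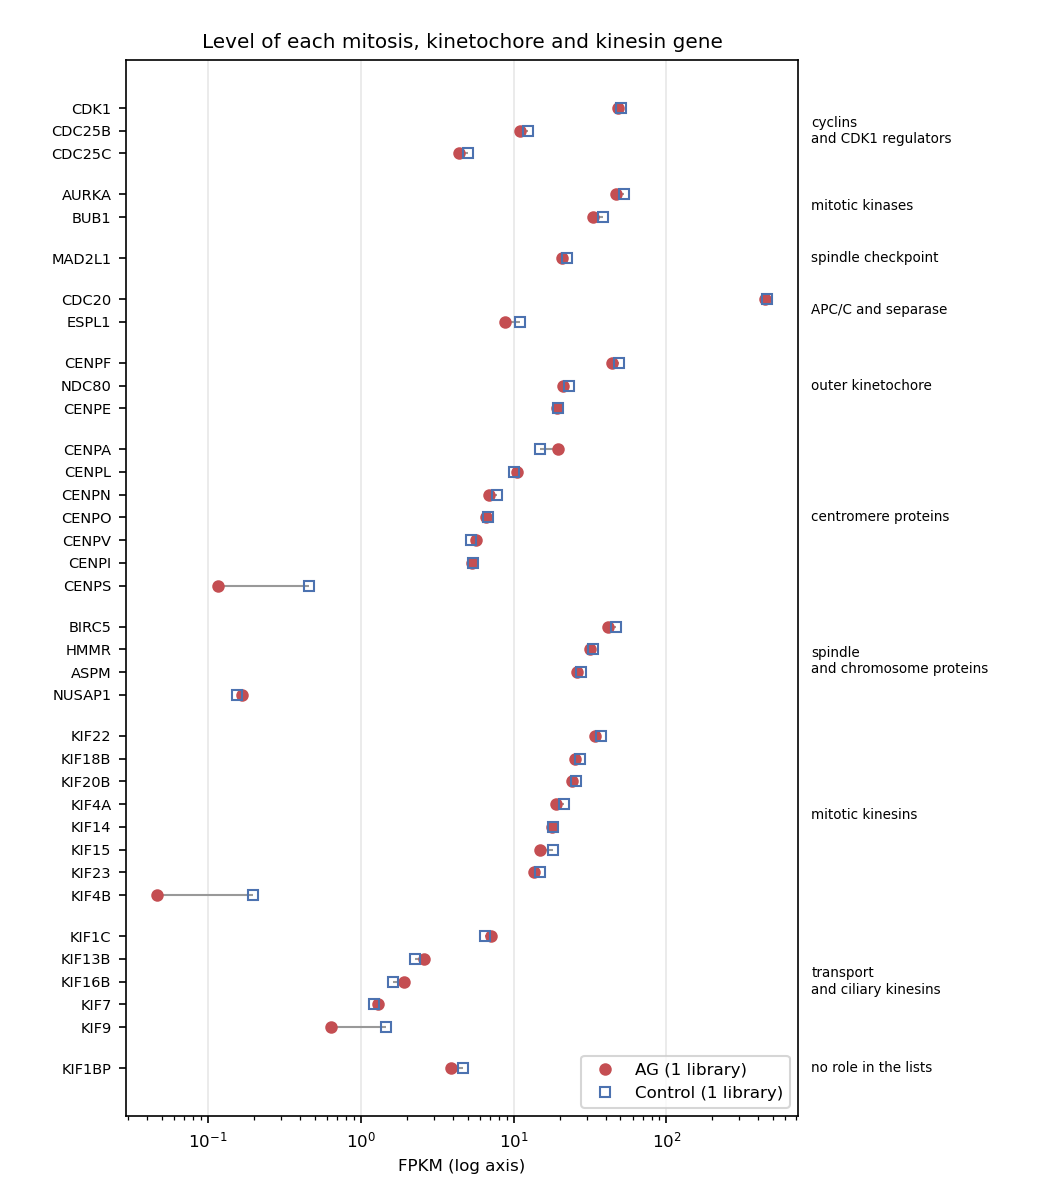
FPKM (log axis) of each of the 36 genes in AG (filled circles) and Control (open squares), 1 library each, grouped by role. CDC20 stands far above the other genes, at 439 FPKM in AG and 458 in Control, and CENPS, NUSAP1 and KIF4B lie below 1 FPKM in both libraries.

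**Figure D2:**
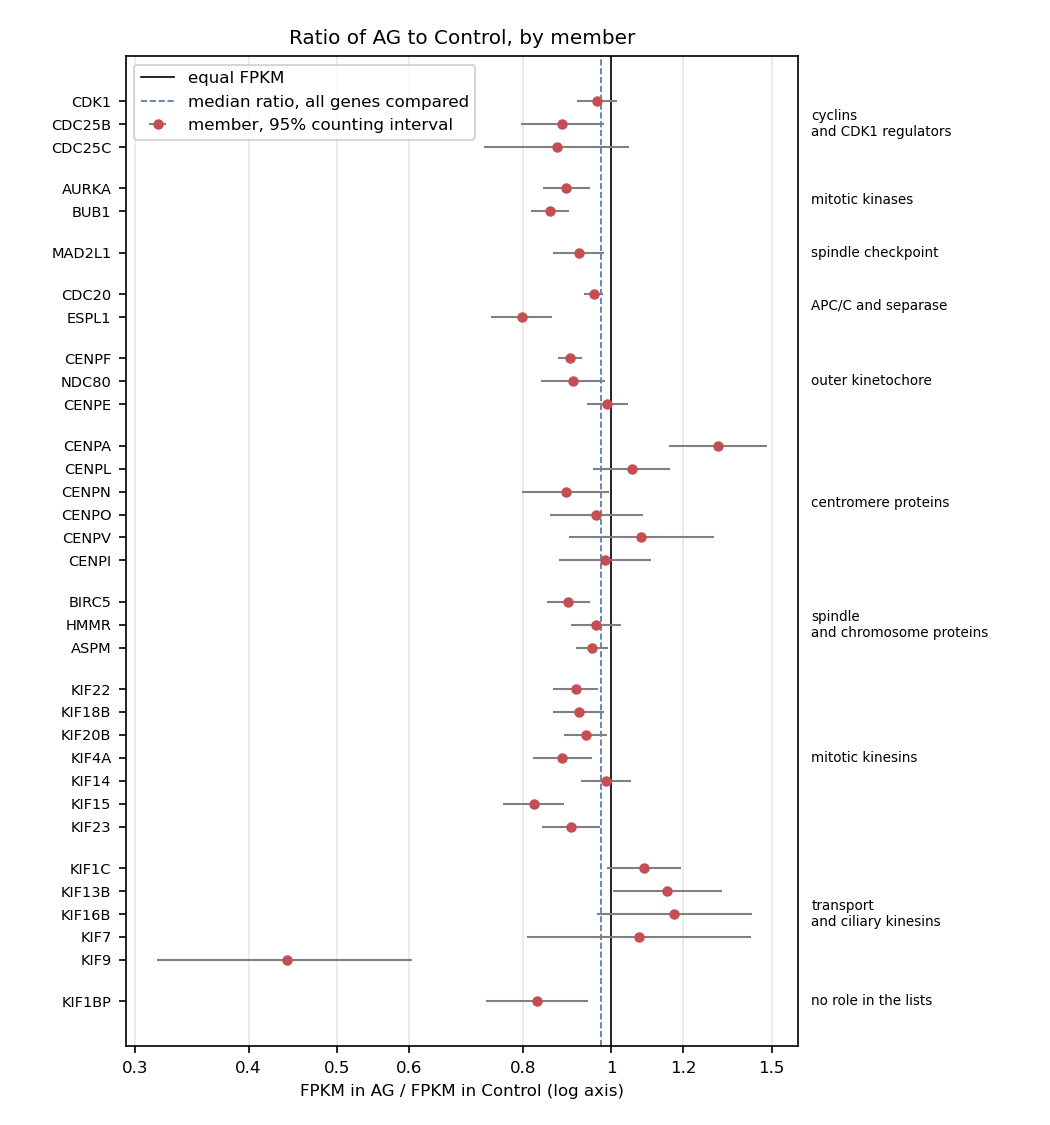
Ratio of AG to Control FPKM (log axis) for the 33 genes compared, with 95% counting intervals, grouped by role. Points left of the black line are lower in AG. CENPA, at 1.31, lies to the right of it with its whole interval, and all 7 mitotic kinesins lie to the left of 1, though KIF14 lies right of the dashed line, the median ratio of all genes compared (0.975).

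Motifs that the rule did not use were more frequent in the promoters of these genes than in those of all genes, although 10 of 32 held neither. Genes expressed late in the cell cycle often carry the cell cycle genes homology region (CHR), a short element near the transcript start through which the MuvB complexes DREAM and B-MYB-MuvB act, and boxes bound by the factor NF-Y upstream of it. RefSeq promoter windows (GRCh38.p14, 250 bases before each transcript start) were found for 32 of the 36 genes, and a gene with several starts counted as holding a motif if any of its windows did. The CHR was searched as TTTGAA or TTCGAA and the NF-Y box as CCAAT, on both strands. TTCGAA reads the same on both strands, and matches were allowed to overlap, as CCAAT does with itself on opposite strands in HMMR. The CHR was found in 12 of the 32 genes (37.5%), against 15.6% of all 15843 protein-coding genes with a window. Within 100 bases of a start it was in 11 genes (34.4%), against 5.25%. The NF-Y box was found in 21 of the 32 genes (65.6%), against 40.2%, and 11 genes (34.4%) held both motifs in 1 window, against 6.0%. A match is a description of the letters and not evidence that a factor binds there.

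The 12 genes with a CHR match are shown because they include the gene that differed most upwards, CENPA, as well as genes that were lower, such as ESPL1 and KIF15. Each line gives the 30 bases around the match nearest to a start, 5′ to 3′ on the strand of the gene, with that match in capitals; TTCAAA is TTTGAA on the other strand.
CDK1 (chr10:60778448-60778477, plus strand): ccctttagcgcggtgagTTTGAAactgctc
CDC25B (chr20:3796260-3796289, plus strand): ctgctgttatttTTCGAAtatataaggagg
CDC25C (chr5:138331817-138331846, minus strand): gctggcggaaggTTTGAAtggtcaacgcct
CDC20 (chr1:43358904-43358933, plus strand): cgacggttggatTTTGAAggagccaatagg
ESPL1 (chr12:53268256-53268285, plus strand): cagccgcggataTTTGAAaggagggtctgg
CENPA (chr2:26786026-26786055, plus strand): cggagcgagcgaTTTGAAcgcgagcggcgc
HMMR (chr5:163460598-163460627, plus strand): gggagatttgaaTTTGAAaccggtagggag
ASPM (chr1:197146765-197146794, minus strand): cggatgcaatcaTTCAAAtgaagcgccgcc
KIF22 (chr16:29790712-29790741, plus strand): ggcaccggggaaTTCGAAtgggagaggcgg
KIF4A (chrX:70290058-70290087, plus strand): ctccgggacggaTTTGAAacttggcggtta
KIF15 (chr3:44761747-44761776, plus strand): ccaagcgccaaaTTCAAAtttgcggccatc
KIF23 (chr15:69414282-69414311, plus strand): ctgattggcccgTTTGAAatgcgccaggcg
HMMR carries the element in direct repeat, the first copy ending where the capitals begin. In 11 of the 12 genes a match began within 70 bases of a start, and in ASPM it began 113 bases before it.

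The arrangement with NF-Y boxes is shown for CDC20 and ESPL1, the highest and the most lowered of the anaphase genes, and for CENPF, which holds the boxes without a CHR match. Each line gives the 120 bases before the RefSeq start on the plus strand, with CHR and NF-Y motifs in capitals; ATTGG is CCAAT on the other strand.
CDC20 (chr1:43358861-43358980): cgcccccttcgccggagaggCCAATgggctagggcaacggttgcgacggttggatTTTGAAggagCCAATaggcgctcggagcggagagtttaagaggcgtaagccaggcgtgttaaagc
ESPL1 (chr12:53268179-53268298): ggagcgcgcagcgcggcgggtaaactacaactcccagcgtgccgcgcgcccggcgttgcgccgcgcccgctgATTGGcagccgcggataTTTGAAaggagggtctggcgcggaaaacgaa
CENPF (chr1:214603075-214603194): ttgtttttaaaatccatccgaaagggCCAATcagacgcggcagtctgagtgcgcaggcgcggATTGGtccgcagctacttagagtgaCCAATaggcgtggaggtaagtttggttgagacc
The 12 genes with a CHR match had a median log2 ratio of -0.13, with 11 below 0 and a range of -0.30 to 0.37. The 17 compared genes with a window but no match had a median of -0.09, with 13 below 0 and a range of -0.58 to 0.15. Split by the NF-Y box, the 19 compared genes with a match had a median of -0.13, with 18 below 0, and the 10 without had a median of -0.02, with 6 below 0. In both splits the genes without a match include KIF1C, KIF7, KIF9 and KIF16B, which have no mitotic role. Both splits thus partly repeat the split by role. The ranges overlapped in both splits, and the differences were not tested. Of the 27 genes with a mitotic role and a window, 12 held the CHR and 20 the NF-Y box. Of the 5 without such a role these numbers were 0 and 1.

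**Figure D3:**
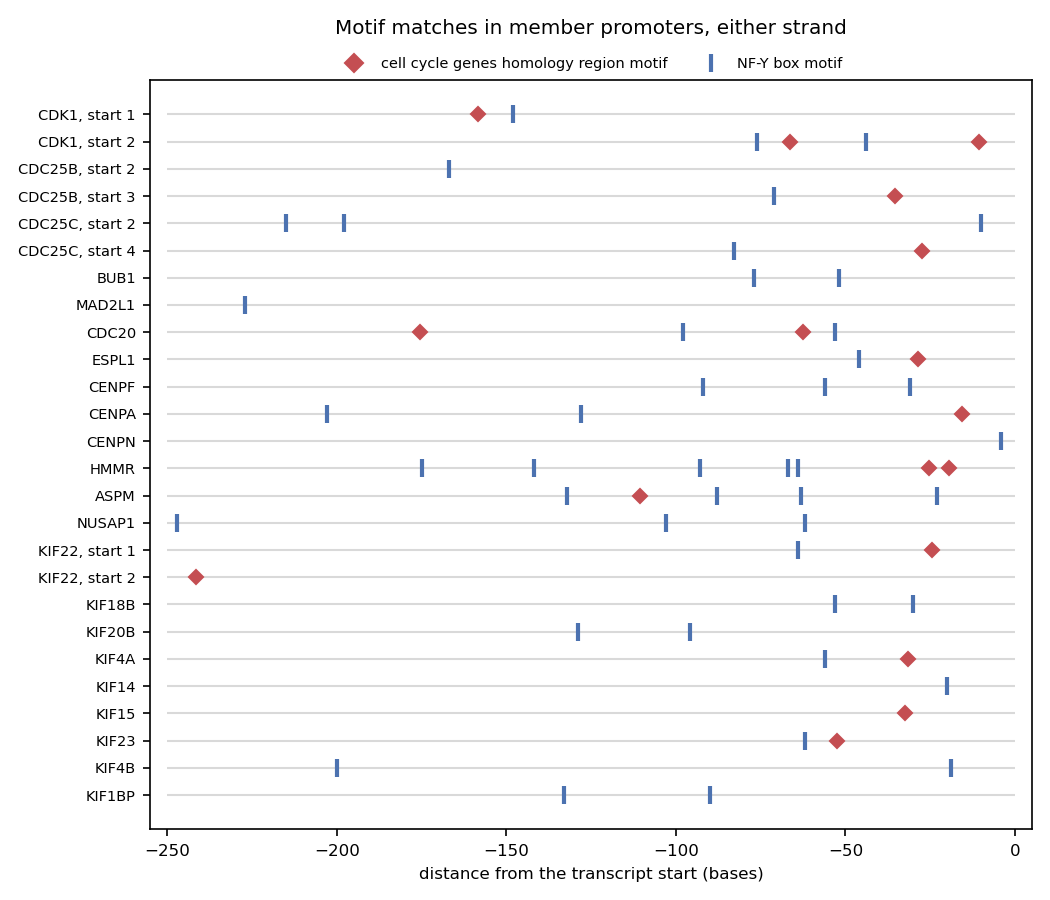
Positions of the CHR motif (diamonds) and the NF-Y box motif (bars) in the 250 bases before each transcript start, in bases from the start, either strand, for the 22 genes with a match. Each row is a RefSeq start; starts without a match, and the 10 genes with neither motif, are not drawn. Most CHR matches lie near the start, with boxes upstream of them.

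CDK1 and the genes that switch it on had ratios from 0.871 to 0.965. All their intervals include the median ratio of all genes compared, 0.975. CDK1, the kinase that drives entry into mitosis, had 48.5 FPKM in AG and 50.3 FPKM in Control, a ratio of 0.965 (0.917 to 1.015). CDC25B, the phosphatase that starts CDK1 activation, had 11.0 FPKM in AG and 12.5 FPKM in Control, a ratio of 0.884 (0.795 to 0.983). CDC25C, which amplifies that activation, had 4.37 FPKM in AG and 5.01 FPKM in Control, a ratio of 0.871 (0.725 to 1.05). The intervals of CDK1 and CDC25C include 1.

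The kinases and checkpoint genes had intervals under 1, although that of MAD2L1 includes the median ratio of all genes compared, 0.975. AURKA, a kinase of centrosomes and spindle poles, had 47.1 FPKM in AG and 52.7 FPKM in Control, a ratio of 0.893 (0.842 to 0.947). BUB1, a kinetochore kinase of the spindle checkpoint on chromosome 2 (110637698 to 110678114, minus strand), rested on 3085 fragments in AG and 3935 in Control. Its level was 32.9 FPKM in AG and 38.4 FPKM in Control, a ratio of 0.857 (0.817 to 0.899). MAD2L1, the checkpoint protein that binds CDC20, had 20.7 FPKM in AG and 22.4 FPKM in Control, a ratio of 0.921 (0.863 to 0.983).

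The anaphase genes were both below 0. CDC20, the activator of the anaphase-promoting complex on chromosome 1 (43358955 to 43363203, plus strand), ranked 26th by mean FPKM among the 5528 genes compared. It had 439 FPKM in AG and 458 FPKM in Control, and its 13115 and 14981 fragments gave a narrow interval around a ratio of 0.957 (0.935 to 0.9797). That interval includes the median ratio of all genes compared, 0.975. ESPL1, the separase on chromosome 12 (53268299 to 53293643, plus strand), had 8.79 FPKM in AG and 11.0 FPKM in Control, a ratio of 0.797 (0.739 to 0.861). It was the most lowered of the 27 compared genes with a mitotic role.

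The outer kinetochore genes were below 0, with CENPE turning above 0 when the libraries were scaled to an equal median. CENPF, a large protein of the fibrous corona, had 44.4 FPKM in AG and 49.2 FPKM in Control, a ratio of 0.902 (0.875 to 0.930). NDC80, the microtubule-binding subunit that names its complex, had 21.0 FPKM in AG and 23.2 FPKM in Control, a ratio of 0.908 (0.837 to 0.984). That interval includes the median ratio of all genes compared, 0.975. CENPE, a kinesin-like motor that brings chromosomes to the spindle equator, had 19.2 FPKM in AG and 19.4 FPKM in Control, a ratio of 0.990 (0.941 to 1.04).

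The centromere proteins were the single mitotic role whose median was not below 0. Of the 6 compared, 3 were below 0 and 3 above, and the median log2 ratio was 0.02, or -0.02 with CENPS included by dropping the filter on low values. CENPA had 19.5 FPKM in AG and 14.9 FPKM in Control, from 566 and 472 fragments, a ratio of 1.31 (1.16 to 1.48) and a log2 ratio of 0.37. It ranked 408th from the top of the 5528 genes compared by log2 ratio. CENPA lies on chromosome 2 (26764289 to 26801067, plus strand), and 138 of its 1983 annotated exon bases (6.96%) are shared with SLC35F6 on the same strand, which was not analysed here. The interval of CENPA does not overlap that of any other centromere gene except CENPL, at 10.5 FPKM in AG and 10.01 FPKM in Control with a ratio of 1.05 (0.955 to 1.16), and CENPV, at 5.64 FPKM in AG and 5.23 FPKM in Control with a ratio of 1.08 (0.899 to 1.30).

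CENPL and CENPN are subunits of the network that links CENPA chromatin to the outer kinetochore, as are CENPI and CENPO. CENPN, which binds CENPA nucleosomes directly, had 6.91 FPKM in AG and 7.76 FPKM in Control, a ratio of 0.891 (0.798 to 0.996). CENPO had 6.59 FPKM in AG and 6.84 FPKM in Control, a ratio of 0.963 (0.856 to 1.08), and CENPI had 5.31 FPKM in AG and 5.40 FPKM in Control, a ratio of 0.984 (0.876 to 1.11). The mRNA of CENPA was thus higher in AG while the intervals of CENPI, CENPO and CENPL include 1 and that of CENPN, although under 1, includes the median ratio of all genes compared, 0.975. CENPN and CENPO share 22.8% and 31.4% of their exon bases with genes on the other strand, and the sources used here do not say whether counting used strand, so reads from those stretches cannot be told apart.

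The spindle and chromosome proteins had ratios from 0.898 to 0.963. BIRC5 (survivin), a subunit of the chromosomal passenger complex, had 41.7 FPKM in AG and 46.5 FPKM in Control, a ratio of 0.898 (0.8498 to 0.948). ASPM, a protein of spindle poles, had 26.1 FPKM in AG and 27.4 FPKM in Control, a ratio of 0.953 (0.916 to 0.991). That interval includes the median ratio of all genes compared, 0.975. HMMR, which binds spindle microtubules, had 31.8 FPKM in AG and 33.0 FPKM in Control, a ratio of 0.963 (0.904 to 1.03).

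All 7 compared kinesins of the spindle were below 0, at a median log2 ratio of -0.13, although KIF14 turned above 0 when the libraries were scaled to an equal median. Of the 7, 6 had an interval under 1, against 28% of all genes averaging 5 FPKM or more that had an interval. For 4 it lay under the median ratio of 0.975, against 660 of 3077 of those genes. The intervals of KIF18B and KIF20B, although under 1, include that median ratio. KIF15, a motor that helps push spindle poles apart, lies on chromosome 3 (44761717 to 44873376, plus strand) and was the lowest, at 14.8 FPKM in AG and 18.01 FPKM in Control, a ratio of 0.822 (0.761 to 0.888). KIF4A, a chromokinesin, had 18.8 FPKM in AG and 21.3 FPKM in Control, a ratio of 0.884 (0.820 to 0.952). KIF23, a motor of the midzone and cytokinesis, had 13.5 FPKM in AG and 15.0 FPKM in Control, a ratio of 0.904 (0.840 to 0.973).

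KIF22, a chromokinesin that moves chromosome arms, was the most abundant of the spindle kinesins at 34.3 FPKM in AG and 37.5 FPKM in Control, a ratio of 0.914 (0.863 to 0.968). It shares 13.0% of its exon bases on the other strand with AC009133.4, which was not analysed here. KIF18B, which limits microtubule length, had 25.2 FPKM in AG and 27.3 FPKM in Control, a ratio of 0.921 (0.864 to 0.982), and KIF20B, a motor of cytokinesis, had 23.9 FPKM in AG and 25.5 FPKM in Control, a ratio of 0.938 (0.888 to 0.990). KIF14, another motor of cytokinesis, differed least, with 17.8 FPKM in AG and 18.02 FPKM in Control, a ratio of 0.987 (0.928 to 1.05). Across these motors the ratio varied from 0.822 to 0.987, and the intervals of KIF15 and KIF14 do not overlap.

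The kinesins of transport and cilia were low in both libraries and mostly above 0. KIF1C, a motor of vesicle transport, was the most abundant at 7.10 FPKM in AG and 6.53 FPKM in Control, a ratio of 1.09 (0.990 to 1.19). KIF13B had 2.59 FPKM in AG and 2.25 FPKM in Control, a ratio of 1.15 (1.004 to 1.32), KIF16B, a motor of early endosomes, had 1.91 and 1.62 FPKM in AG and Control, a ratio of 1.17 (0.965 to 1.43), and KIF7, a cilium-based regulator of Hedgehog signalling, had 1.30 and 1.21 FPKM in AG and Control, a ratio of 1.07 (0.808 to 1.42). KIF9, a kinesin of motile cilia on chromosome 3 (47228026 to 47283451, minus strand), was the exception. It rested on 56 fragments in AG and 139 in Control, or 0.641 and 1.46 FPKM, a ratio of 0.440 (0.317 to 0.605). Its log2 ratio of -0.58 just missed the 1.5-fold threshold on the log2(FPKM + 1) scale, and 17.9% of its exon bases are shared with KIF9-AS1 or KLHL18 on the other strand. KLHL18 itself had 4.34 FPKM in AG and 4.25 FPKM in Control. KIF7 shares 11.8% of its exon bases on the other strand with TICRR, which had 9.32 FPKM in AG and 9.45 FPKM in Control. If counting ignored strand, reads from the shared stretches cannot be told apart, and the low value of KIF7 may hold reads of TICRR.

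KIF1BP matched the rule by its symbol but is no motor; it encodes a protein that binds and inhibits kinesins. It had 3.90 FPKM in AG and 4.70 FPKM in Control, a ratio of 0.830 (0.730 to 0.943).

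**Figure D4:**
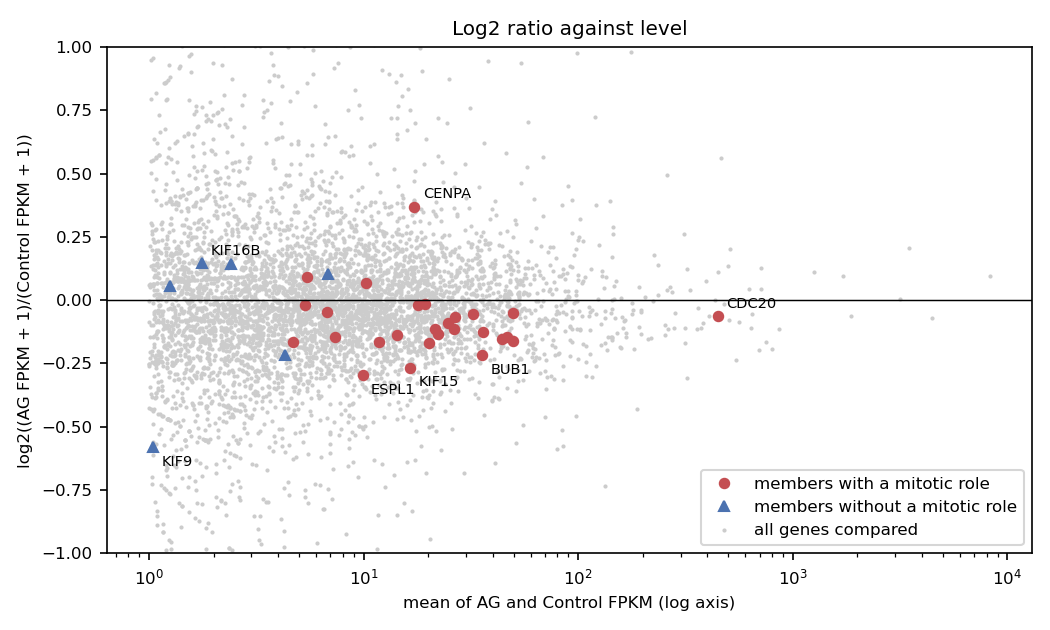
Log2((AG FPKM + 1)/(Control FPKM + 1)) against mean FPKM (log axis) for all 5528 genes compared (grey; genes beyond the range of the vertical axis are not drawn), with the 27 genes with a mitotic role (circles) and the 6 without (triangles). The circles form a band just under 0 over most of the range of levels, and CENPA stands above it at 0.37.

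The remaining 3 genes were near 0 in both libraries and were not compared. NUSAP1, a spindle protein, rested on 9 fragments in each library, or 0.168 FPKM in AG and 0.154 FPKM in Control. CENPS rested on 3 fragments in AG and 13 in Control, or 0.116 and 0.458 FPKM. KIF4B, a gene without introns that is a near copy of KIF4A, rested on 3 and 14 fragments, or 0.0460 and 0.197 FPKM, and reads cannot be assigned between the copies with certainty. For NUSAP1 62.2% of exon bases are shared with AC087721.2 on the same strand. CENPS shares 64.7% on the same strand and 7.25% on the other strand, with CENPS-CORT and AL139424.1 lying on different strands. A value near 0 for these genes is therefore not read as absence of the mRNA. With their ratios of 0.252 (0.0461 to 0.918) for CENPS and 0.234 (0.0432 to 0.839) for KIF4B, each resting on 3 fragments in AG, the direction is uncertain.

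Other genes of mitosis, from a separate list of 81, stood between these genes and all genes compared. Of 37 compared, 25 were below 0 (67.6%), against 56.8% of all genes compared, the median log2 ratio was -0.09, 1 was at least 1.5-fold higher and none was at least 1.5-fold lower. The lowest were KIFC1, a minus-end kinesin, at 2.58 FPKM in AG and 3.64 FPKM in Control, and NCAPG, a condensin subunit, at 19.97 FPKM in AG and 25.97 FPKM in Control. The highest were CEP55, a protein of the midbody, at 24.9 FPKM in AG and 21.3 FPKM in Control, and SPC25, at 3.09 FPKM in AG and 1.55 FPKM in Control, a ratio of 2.0 (1.38 to 2.93). SPC25 is a partner of NDC80 in the same complex, and SPC24, to which it binds, had 18.4 FPKM in AG and 20.1 FPKM in Control, a ratio of 0.913 (0.829 to 1.01).

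The next genes were named after their values were seen and stand for no group. FOXM1, a transcription factor of late cell cycle genes, had 13.7 FPKM in AG and 13.5 FPKM in Control, a ratio of 1.019 (0.934 to 1.11), and MYBL2 (B-MYB) had 135 FPKM in AG and 124 FPKM in Control, a ratio of 1.08 (1.04 to 1.12). LIN9, a subunit of the MuvB complexes, had 14.1 FPKM in AG and 14.98 FPKM in Control, a ratio of 0.941 (0.861 to 1.03). Among genes that help load CENPA onto centromeres, MIS18A had 22.8 FPKM in AG and 25.1 FPKM in Control, a ratio of 0.911 (0.814 to 1.019). OIP5 had 1.79 FPKM in AG and 2.26 FPKM in Control, a ratio of 0.795 (0.488 to 1.28). Both ratios were under 1, where that of CENPA was over 1, and both intervals include 1.

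Genes of the G1/S transition and DNA replication, which act earlier in the cycle, had a lower median than the mitosis genes. Of 64 listed genes 31 were compared, and 28 of these were below 0 (90.3%), against 56.8% of all genes compared. Their median log2 ratio was -0.19, against -0.11 for the mitosis, kinetochore and kinesin genes. Of the 31, 1, CDK6, was at least 1.5-fold lower (3.33% of all genes compared) and none was at least 1.5-fold higher (3.6%). The lowest were CDK6, a kinase of early G1, at 31.7 FPKM in AG and 50.1 FPKM in Control, and CDT1, a licensing factor, at 30.5 FPKM in AG and 42.1 FPKM in Control. The highest were RPA2, a subunit of the single-strand binding protein, at 37.5 FPKM in AG and 34.5 FPKM in Control, and CCND3, a D-type cyclin, at 33.8 FPKM in AG and 32.8 FPKM in Control. The difference between the lists was not tested. The CHR motif was in 1 of the 23 G1/S and replication genes with a promoter window (4.35%) and in 10 of 29 other mitosis genes (34.5%). The NF-Y box did not separate them in this way, with 13 of 23 (56.5%) and 20 of 29 (69.0%).

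**Figure D5:**
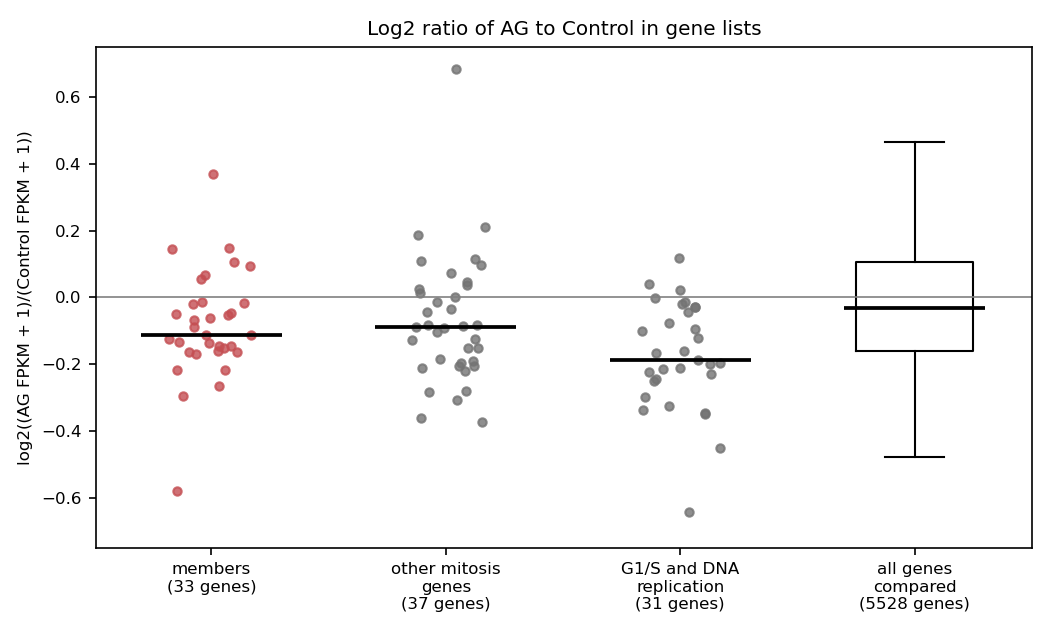
Log2((AG FPKM + 1)/(Control FPKM + 1)) for the 33 mitosis, kinetochore and kinesin genes, 37 other mitosis genes and 31 G1/S and DNA replication genes (each point a gene, lines the medians), and for all 5528 genes compared (box at the quartiles, whiskers from percentile 5 to 95). The medians are -0.11, -0.09, -0.19 and -0.03.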

How the data were processed

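Trizol was used to isolate RNA, and a TruSeq Stranded mRNA kit for the libraries, per the labels' protocols. The authors deposited FPKM per Ensembl gene; per the submitters' processing notes, the tools included Trimmomatic, HISAT2, Cufflinks and HTSeq on hg38, with no version stated. The sources used here give no annotation release, strand setting or filter. Because FPKM is relative to the whole library, highly expressed genes that differ move the values of every other gene. A gene without a value was not set to 0.

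Totals were recovered from single-transcript genes, whose FPKM times exon length was a whole number of fragments (within 0.01) for 88.1% of 5259 genes in AG and 88.4% of 5315 in Control. A gene's fragments are the whole numbers that a common length gives in both libraries, with the length nearest the GENCODE 29 exon length; ESPL1 allowed 4 such lengths within 1.5-fold of it, and for CENPI and CENPN the length found lay further away than that. Fragments are not independent molecules. Genes averaging 1 FPKM or more were compared with a pseudocount of 1 FPKM and a threshold of 1.5-fold. No count model was fitted.

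The rule allowed any of these genes to be named, with full values planned from a mean of 5 FPKM, and the 2 highest and 2 lowest of each other list. Values of genes under that mean, such as CDC25C, KIF1BP and KIF13B, are also given. The members and lists were chosen with earlier results of these data known. The steps were tested on simulated data. Results were recomputed with a pseudocount of 0.1 or 5 FPKM, other filters on low values, rescaled libraries, a 2-fold threshold and other motif settings. Python 3.11.15, numpy 2.4.6, pandas 2.3.3, scipy 1.17.1 and matplotlib 3.10.9 were used.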

Additional observations from a re-analysis of the deposited data

How the results depend on the processing

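No paired analysis was possible because each group had 1 library. The median log2 ratio of the mitosis, kinetochore and kinesin genes ran from -0.118 to -0.0789 over the pseudocounts, filters and scalings tried. The number below 0 ran from 23 to 28, out of numbers of genes that differed. With no filter on low values it was 28 of 36, against 52.3% of all genes under that setting. At a mean of at least 5 FPKM it was 23 of 27, against 56.8% of all genes at that level. The median of -0.0789 came from scaling by the median of ratios, with 23 of 33 below 0; this makes 50% of all genes compared fall below 0; CENPE, CENPI and KIF14 then lie above 0. With a pseudocount of 0.1 FPKM, 1 gene, KIF9, was at least 1.5-fold lower, and with a 2-fold threshold none was. Leaving out KIF1BP, KIF9 or CENPA, chosen after the data were seen, gave medians of -0.101, -0.101 and -0.114. The CHR share was 34.4% within 100 bases and 31.25% for TTTGAA alone. Relative to the median ratio of all genes compared, 11 of the 33 intervals lay under it (18.1% of all genes with an interval). Over it lay 3 (1098 of the 5382 genes with an interval). Counting error alone sets the intervals, and the spread between cultures is unknown.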
